A study of Mus musculus with 6 samples.

Results

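Heart takes up glucose through the GLUT transporters of the Slc2a family, breaks it down to pyruvate and lactate by glycolysis, and stores part of it as glycogen. Here 42 genes of these 3 processes were followed by name in hearts of wild-type female mice. They were listed by symbol, and all 42 were found among the 23808 genes of the deposited table. Of them, 4 belong to glucose entry (3 transporters and their inhibitor Txnip), 21 to glycolysis and its control, and 17 to glycogen metabolism.

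The study asked how the heart transcriptome differs between a high-fat diet (HFD) and normal chow (NC), each fed to the mice aged 4 to 12 weeks. There were 3 mRNA-seq libraries per diet, numbered 1 to 3, of heart tissue from wild-type (WT) females, and no other genotype or treatment is named in the labels for these groups. Values are FPKM, fragments scaled to gene length and to the size of the library, so levels of different genes can be set side by side per length, and they are given in the order of the library numbers. Whether each library stands for another mouse is not stated in the labels, so the p-values reflect only how far these libraries spread, part of which may be technical. In bulk tissue, fewer cells of a type and less RNA per cell cannot be told apart.

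As background, hexokinase traps glucose as glucose 6-phosphate, phosphofructokinase commits it to glycolysis, and the later enzymes carry it to pyruvate, which lactate dehydrogenase interconverts with lactate. Glucose 6-phosphate can instead pass through phosphoglucomutase and UDP-glucose into glycogen, which glycogenin primes, glycogen synthase extends and glycogen phosphorylase degrades. Several steps have isoforms of separate genes, some of them typical of striated muscle or heart, and adult heart muscle burns mainly fatty acids, with glucose as a second fuel.

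The summed FPKM was 576334 to 708120 in the HFD libraries and 694956 to 739406 in the NC libraries, and the number of reads behind the values is unknown. HFD 1 had the lowest sum, and 4 mitochondrially encoded genes and 2 predicted genes with more than 500 FPKM in other libraries were listed at 0 there. One of these predicted genes, Gm28437, was also listed at 0 in HFD 2 and NC 2. It was at 59858 FPKM in HFD 3, 62160 FPKM in NC 1 and 59973 FPKM in NC 3. Without mitochondrially encoded genes and these zero-listed genes the sums lay between 463452 and 483567 on HFD and between 466865 and 483992 on NC. The summed level of 8 cardiomyocyte markers, none of them at 0 in any library, was 23726 to 26972 FPKM on HFD and 26872 to 35542 FPKM on NC. The sum of 7 macrophage markers was wholly lower on HFD, at 89.9 to 125 FPKM, against 130.4 to 175 FPKM on NC. Most of it came from C1qa, C1qb and C1qc. Singly, Adgre1, Csf1r, C1qb and Mrc1 overlapped between the diets, and 4.88% of all tested genes lay wholly lower on HFD. The sums of endothelial and of fibroblast markers overlapped. So did that of smooth muscle and pericyte markers, at 179 to 235 FPKM on HFD and 233 to 308 FPKM on NC. Adipocyte markers summed to 1.04 to 51.8 FPKM on HFD and 3.74 to 67.3 FPKM on NC. The sum of 8 atrial markers ranged from 449 to 7182 FPKM on HFD and from 362 to 14021 FPKM on NC, lowest in HFD 2 and NC 2. Of 12 markers of fast skeletal muscle 11 were in the table, and their summed level was 8.25 to 16.3 FPKM on HFD and 10.2 to 14.5 FPKM on NC. Among them Myh1, Myh2 and Tnnc2 were below 0.1 FPKM in every library, while 4 averaged 1 FPKM or more. These were Tnni2, Mylpf, Mybpc2 and Casq1, of which Casq1 was the highest, at 3.58 to 9.95 FPKM over the 6 libraries. Erythroid markers summed to 1241 to 13371 FPKM on HFD and 2025 to 8294 FPKM on NC. The part of these differences in the results below was not tested.

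The isoform pairs of phosphoglycerate mutase and enolase had the most uneven levels of the glycolytic enzymes, and the sequences before their start sites are therefore shown. Each sequence holds the 250 bases before a RefSeq start site (build GRCm38.p6, the same assembly as mm10), 5′ to 3′ on the gene's strand, with CG dinucleotides in capitals.
Pgam2: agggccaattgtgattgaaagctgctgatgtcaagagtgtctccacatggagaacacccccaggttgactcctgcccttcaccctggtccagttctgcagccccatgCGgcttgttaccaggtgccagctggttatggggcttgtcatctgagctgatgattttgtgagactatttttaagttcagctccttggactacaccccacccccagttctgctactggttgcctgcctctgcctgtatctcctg
Pgam1: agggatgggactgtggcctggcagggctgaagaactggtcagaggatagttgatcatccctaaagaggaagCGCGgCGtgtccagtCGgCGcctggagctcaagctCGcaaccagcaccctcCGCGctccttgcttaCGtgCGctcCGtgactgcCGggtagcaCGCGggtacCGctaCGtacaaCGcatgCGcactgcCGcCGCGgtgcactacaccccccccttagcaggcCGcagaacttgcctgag
Eno3: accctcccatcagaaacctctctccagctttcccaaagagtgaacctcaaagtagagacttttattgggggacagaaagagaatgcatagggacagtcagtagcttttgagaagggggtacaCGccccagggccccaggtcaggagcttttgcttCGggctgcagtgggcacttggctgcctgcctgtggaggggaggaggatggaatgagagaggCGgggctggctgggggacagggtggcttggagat
Eno1: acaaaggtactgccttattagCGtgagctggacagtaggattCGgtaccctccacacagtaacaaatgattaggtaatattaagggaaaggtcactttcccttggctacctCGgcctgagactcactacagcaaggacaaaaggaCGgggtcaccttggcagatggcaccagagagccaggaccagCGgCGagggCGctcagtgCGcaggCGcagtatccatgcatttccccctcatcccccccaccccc
These windows lie at chr11:5803797-5804046 on the minus strand, chr19:41911621-41911870 on the plus strand, chr11:70656926-70657175 on the plus strand and chr4:150236458-150236707 on the plus strand. The window of Pgam2 held 1 CG and that of Pgam1 held 22. The window of Eno3 held 3, and the window of Eno1 shown held 9, with up to 21 in its other windows. Windows were at hand for 40 of the 42 genes. Every window of Pgam2, Eno3, Pygm, Phkg1 and Ppp1r3a held at most 4 CG, a limit chosen after the counts were seen, and these are genes known for their expression in striated muscle. Other muscle forms had more, with 25 CG for Hk2, 19 for Phka1, 11 for Gys1, 5 for Fbp2 and up to 10 in the windows of Pfkm, so a low count did not mark muscle forms in general. The median over the windows of the listed genes was 13 CG, and over all 32851 windows in the table it was 6, with 44.4% holding at most 4. These counts are a description of the reference sequence and were not measured in the hearts.

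Muscle and heart forms made up most of the message in 7 of the 8 isoform families compared, in every library of both diets. Phosphorylase kinase was not among these families, and its subunit genes are given with the glycogen genes. Slc2a4 encodes the insulin-responsive transporter GLUT4, and its share in the summed FPKM of Slc2a4, Slc2a1 and Slc2a12 was 91.0, 93.3 and 92.0% in HFD 1 to 3, against 91.7, 92.4 and 89.3% in NC 1 to 3. Pfkm, the muscle phosphofructokinase, held 83.4, 80.4 and 82.6% in HFD 1 to 3, against 82.1, 82.2 and 84.4% in NC 1 to 3, of the sum over Pfkm, Pfkl and Pfkp. Pgam2, the muscle phosphoglycerate mutase, held 93.5, 96.2 and 94.1% in HFD 1 to 3, against 93.6, 95.6 and 95.6% in NC 1 to 3. These 3 shares, of the genes summed, were above 80% in all 6 libraries, and the diets overlapped in each. Other Slc2a genes were outside the transporter sum. Among them Slc2a8 averaged 6.58 FPKM over the 6 libraries, against 4.60 FPKM for Slc2a1, and with it the share of Slc2a4 would be lower.

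Eno3, the muscle enolase, held 88.9, 89.2 and 88.2% in HFD 1 to 3, against 89.6, 92.0 and 88.6% in NC 1 to 3, of the sum with Eno1. Hk2, the insulin-regulated hexokinase of muscle, held 70.7, 67.2 and 58.1% in HFD 1 to 3, against 55.5, 67.5 and 59.8% in NC 1 to 3, of the sum with Hk1. The heart type subunit of lactate dehydrogenase, Ldhb, held 68.2, 66.5 and 65.6% in HFD 1 to 3, against 67.2, 72.2 and 64.4% in NC 1 to 3, of the sum with the muscle type subunit Ldha. Hk2 and Ldhb thus stayed between 55.5 and 72.2% of their families, and Hk1 and Ldha gave the rest.

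Pygm, the muscle glycogen phosphorylase, held 63.8, 67.1 and 62.7% in HFD 1 to 3, against 63.2, 68.4 and 62.2% in NC 1 to 3, of the sum with the brain form Pygb. The exception was the family of Pfkfb1, Pfkfb2 and Pfkfb3, bifunctional enzymes that set the level of fructose 2,6-bisphosphate, an activator of phosphofructokinase. Pfkfb2, known as the heart form, held 42.3, 39.5 and 54.2% in HFD 1 to 3, against 54.6, 73.5 and 33.2% in NC 1 to 3, so that its share was below 50% in HFD 1, HFD 2 and NC 3.

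**Figure D1:**
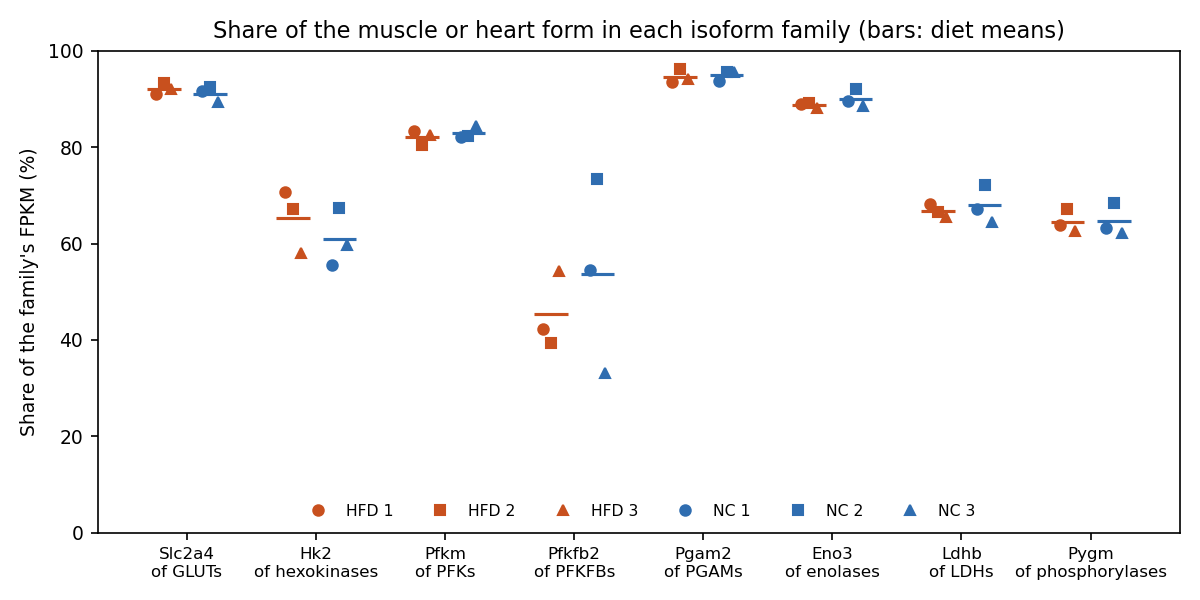
Share of the muscle or heart form in the summed FPKM of its isoform family (vertical axis, percent) for 8 families, with HFD libraries left of NC libraries, 1 point per library and a bar at each diet mean. The diets overlap in all 8 families, Pgam2 lies at 93.5% or above in every library, and Pfkfb2 spreads from 33.2 to 73.5%. The glucose transporter sum holds Slc2a4, Slc2a1 and Slc2a12 only.

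No isoform share separated the diets. The difference HFD minus NC was 4.40 percentage points for Hk2 and -8.43 for Pfkfb2, and between -1.29 (Eno3) and 1.001 (Slc2a4) for the other 6 families. For Hk2 the difference was 8.03 points when HFD 3 was left out and 1.71 points when NC 1 was. Exact two-sided permutation tests gave p between 0.3 and 1 for the 8 families (n = 3 against 3, smallest possible p = 0.1; Benjamini-Hochberg adjusted p between 0.96 and 1). With 3 libraries each, a p above the threshold does not show that the shares are alike. A share within a library does not depend on how libraries are scaled, but it does depend on how reads shared with other gene copies were assigned.

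Transcript levels differed widely between steps of glycolysis. Over the 6 libraries the aldolase gene Aldoa had the highest level of all 42 genes and was the 51st most abundant gene of the table. It was at 1063, 1129 and 1232 FPKM in HFD 1 to 3, against 1273, 1419 and 1141 FPKM in NC 1 to 3. After it came Ldhb (rank 91), Eno3 (rank 118), Gapdh (rank 120) and Pgam2 (rank 147), all between 449 and 679 FPKM on average. Summed over isoforms, lactate dehydrogenase stood at 916 ± 122 FPKM on HFD and 1095 ± 164 FPKM on NC (SD, n = 3 each).

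Hexokinase was the lowest step, at 37.8 ± 2.27 FPKM on HFD and 40.6 ± 5.69 FPKM on NC for Hk1 and Hk2 together (SD, n = 3 each). Phosphoglycerate kinase (Pgk1) averaged 96.1 ± 32.8 FPKM on HFD and 95.8 ± 11.5 FPKM on NC, and phosphofructokinase 133 ± 38.0 and 128 ± 2.35 FPKM (SD, n = 3 each). Within each of the 6 libraries phosphofructokinase was above phosphoglycerate kinase and aldolase was above every other step. Across libraries both pairs of neighbours overlapped, since aldolase in HFD 1 (1063 FPKM) was below lactate dehydrogenase in NC 2 (1192 FPKM). Gapdh, Aldoa, Ldha, Pgk1, Pgam1 and Eno1 have near-identical pseudogene or retrogene copies in the mouse genome. No source used here says how reads shared with such copies were assigned, which leaves the levels of these genes uncertain. The shares of Eno3, Pgam2 and Ldhb, set against Eno1, Pgam1 and Ldha, carry the same uncertainty.

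**Figure D2:**
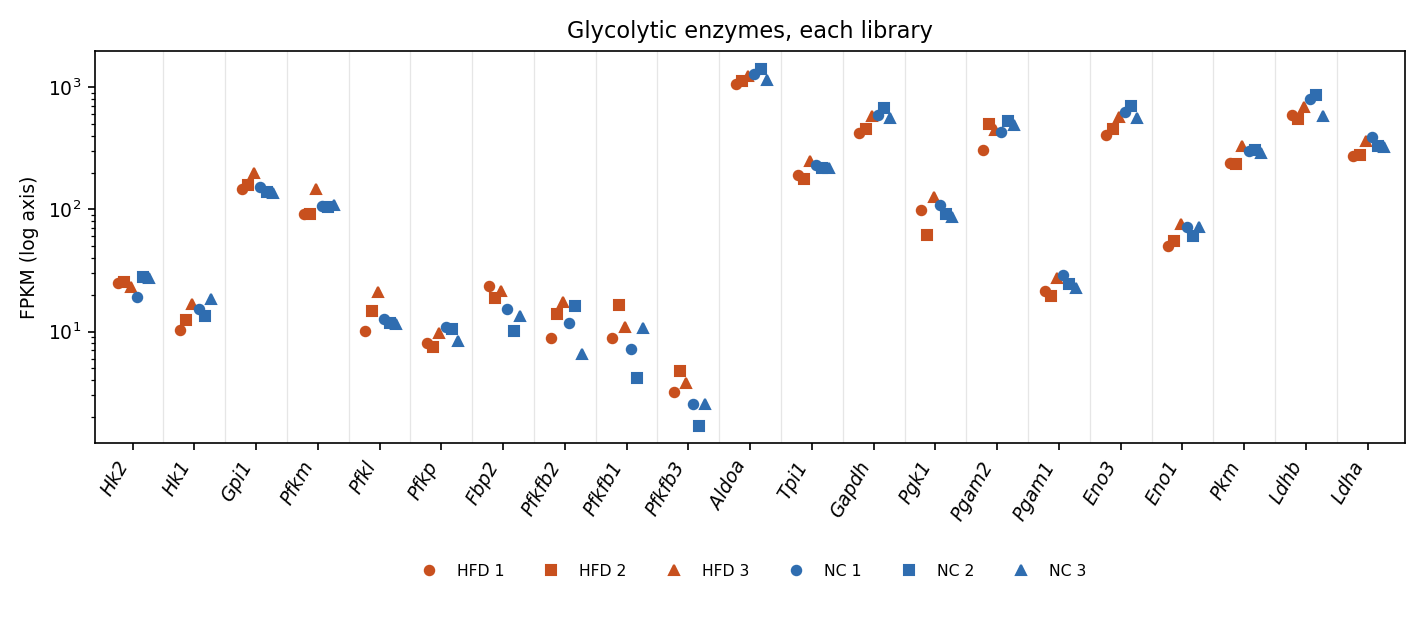
FPKM (log axis) of the 21 glycolysis genes in pathway order, with HFD libraries left of NC libraries for each gene and 1 point per library. Aldoa lies at 1063 FPKM or above in all 6 libraries, Pfkfb3 below 5 FPKM, and the 3 HFD points lie above the 3 NC points for Fbp2 and Pfkfb3 only.

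Between the diets no gene of the 42 passed the test. The diets were compared with limma on log2(FPKM + 1), a scale that understates changes of low genes, over the 11456 genes that averaged 1 FPKM or more, at a Benjamini-Hochberg adjusted p of 0.05. Of the 42 genes 41 were tested, 0 were called, and their limma adjusted p was 0.9998 or more. The background was the same, since 0 of 11456 genes were called (0%), while 415 had an unadjusted p under 0.05. At an unadjusted p under 0.05, 3 of the 41 were higher on HFD, where 1.32% of all genes were, and 0 were lower, where 2.30% of all genes were. The HFD values lay wholly above the NC values in 2 of the 41, against 3.25% of all genes, and wholly below in 0, against 4.88% of all genes.

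The 3 genes with an unadjusted p under 0.05 were Fbp2, Pfkfb3 and Pfkfb1. Fbp2 encodes the muscle fructose bisphosphatase, which reverses the phosphofructokinase reaction. It was at 23.7, 18.8 and 21.4 FPKM in HFD 1 to 3, against 15.3, 10.2 and 13.3 FPKM in NC 1 to 3, with every HFD library above every NC library (log2 fold change 0.69, SE 0.22, 95% CI 0.21 to 1.17, limma unadjusted p = 0.00881). Pfkfb3, the inducible bifunctional enzyme, was low, at 3.22, 4.80 and 3.77 FPKM in HFD 1 to 3, against 2.57, 1.70 and 2.53 FPKM in NC 1 to 3, and the diets did not overlap either (log2 fold change 0.59, SE 0.23, 95% CI 0.09 to 1.10, limma unadjusted p = 0.0254). Pfkfb1, the form of liver and muscle, was at 8.79, 16.6 and 10.9 FPKM in HFD 1 to 3, against 7.20, 4.14 and 10.6 FPKM in NC 1 to 3 (log2 fold change 0.69, SE 0.31, 95% CI 0.00 to 1.37, limma unadjusted p = 0.0489). Here NC 3 lay above HFD 1, and HFD 2 was the highest library. Leaving out 1 library at a time gave log2 fold changes between 0.54 and 0.81 for Fbp2, 0.46 and 0.70 for Pfkfb3, and 0.38 and 0.97 for Pfkfb1. For Pfkfb1 it was 0.38 without NC 2, 0.45 without HFD 2 and 0.97 without NC 3.

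Their relatives did not separate the diets. Pfkfb4, a further bifunctional enzyme gene outside the 42, was at 0.463, 1.02 and 1.03 FPKM in HFD 1 to 3, against 1.67, 0.911 and 1.91 FPKM in NC 1 to 3 (log2 fold change -0.44, SE 0.24, limma unadjusted p = 0.0983), with a negative sign. Pfkfb2 was at 8.79, 13.9 and 17.3 FPKM in HFD 1 to 3, against 11.7, 16.2 and 6.53 FPKM in NC 1 to 3 (log2 fold change 0.23, SE 0.32), with NC 3 lowest and HFD 3 highest, and without NC 3 the log2 fold change was -0.09. Pfkm, the most abundant phosphofructokinase message, was at 91.2, 91.2 and 146 FPKM in HFD 1 to 3, against 107, 104 and 108 FPKM in NC 1 to 3, and its 3 NC values lay between those of HFD 1 and HFD 3 (log2 fold change 0.01, SE 0.22, 95% CI -0.48 to 0.49). Pfkl, the liver type subunit, had a log2 fold change of 0.27 (SE 0.26), and Pfkp, the platelet type, one of -0.21 (SE 0.22). For Pfkl the value was 0.019 without HFD 3.

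Fbp2 had the smallest unadjusted p of the 42 genes, and its upstream window is therefore shown, with the E-box letters CACGTG in capitals.
Fbp2: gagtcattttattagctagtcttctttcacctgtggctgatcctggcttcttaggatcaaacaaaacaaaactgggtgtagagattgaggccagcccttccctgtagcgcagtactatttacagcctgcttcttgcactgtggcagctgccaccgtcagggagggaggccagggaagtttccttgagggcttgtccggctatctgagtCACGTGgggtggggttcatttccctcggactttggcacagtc
The window lies at chr13:62858401-62858650 on the minus strand (GRCm38.p6), and the Fbp2 gene spans 62836877 to 62858422 on chromosome 13 in GENCODE annotation of mm10. CACGTG, which reads the same on both strands, was found in 8 of the 57 windows of the listed genes, 1 each of 8 genes. Among them were Pfkfb2, Pfkfb3, Pfkm, Ldha and Ppp1r3c, while no window of Pfkfb1 held it. Of all 32851 windows 1978 held it (6.02%). CACGTG contains a CG, and the windows of the listed genes held a median of 13 CG, against 6 over all windows. The 2 counts were not adjusted for this. Such a match is a description of the sequence and not a site that was shown to be bound.

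Most later enzymes of glycolysis had small negative log2 fold changes, none of which passed. In the glycolysis group 13 of 21 genes were below 0 and 8 above, with a median of -0.16, while over all 11456 tested genes 6083 were below 0 and 5373 above, with a median of -0.02. Eno3 had the most negative value. It was at 404, 453 and 565 FPKM in HFD 1 to 3, against 621, 704 and 558 FPKM in NC 1 to 3 (log2 fold change -0.41, SE 0.21, 95% CI -0.86 to 0.04, limma unadjusted p = 0.0683). HFD 1 and HFD 2 lay below every NC library, and HFD 3 lay among them.

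Gapdh followed the same order, at 422, 453 and 586 FPKM in HFD 1 to 3, against 597, 670.3 and 559 FPKM in NC 1 to 3 (log2 fold change -0.33, SE 0.20). Ldhb was at 588, 553 and 692 FPKM in HFD 1 to 3, against 797, 860.4 and 584 FPKM in NC 1 to 3 (log2 fold change -0.28, SE 0.21), and here NC 3 lay close to the HFD values. Pgam2 was at 308, 496 and 444 FPKM in HFD 1 to 3, against 429, 530.0 and 489 FPKM in NC 1 to 3 (log2 fold change -0.24, SE 0.22), and without HFD 1 the log2 fold change was -0.04. HFD 1 was lowest for Gapdh, Eno3 and Pgam2, and the diets overlapped in all of them.

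For the remaining enzymes the log2 fold change was -0.16 for Aldoa, -0.12 for the triose phosphate isomerase gene Tpi1, -0.17 for the pyruvate kinase gene Pkm, -0.20 for Ldha, -0.20 for Eno1, -0.16 for Pgam1 and -0.05 for Pgk1. The isomerase gene Gpi1 was one of the few with a positive value (log2 fold change 0.21, SE 0.20), at 146, 157 and 197 FPKM in HFD 1 to 3, against 153, 138 and 137 FPKM in NC 1 to 3. Its level was highest in HFD 3. Hk2 was at 25.0, 25.6 and 23.2 FPKM in HFD 1 to 3, against 19.3, 27.7 and 27.5 FPKM in NC 1 to 3, with a log2 fold change of 0.00 (SE 0.21, 95% CI -0.46 to 0.47), and Hk1, the general form, had -0.25 (SE 0.24). Among these genes the 95% intervals reached down to -0.76 (Hk1) and up to 0.64 (Gpi1), so differences of that size lie within the error of 3 libraries each.

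**Figure D3:**
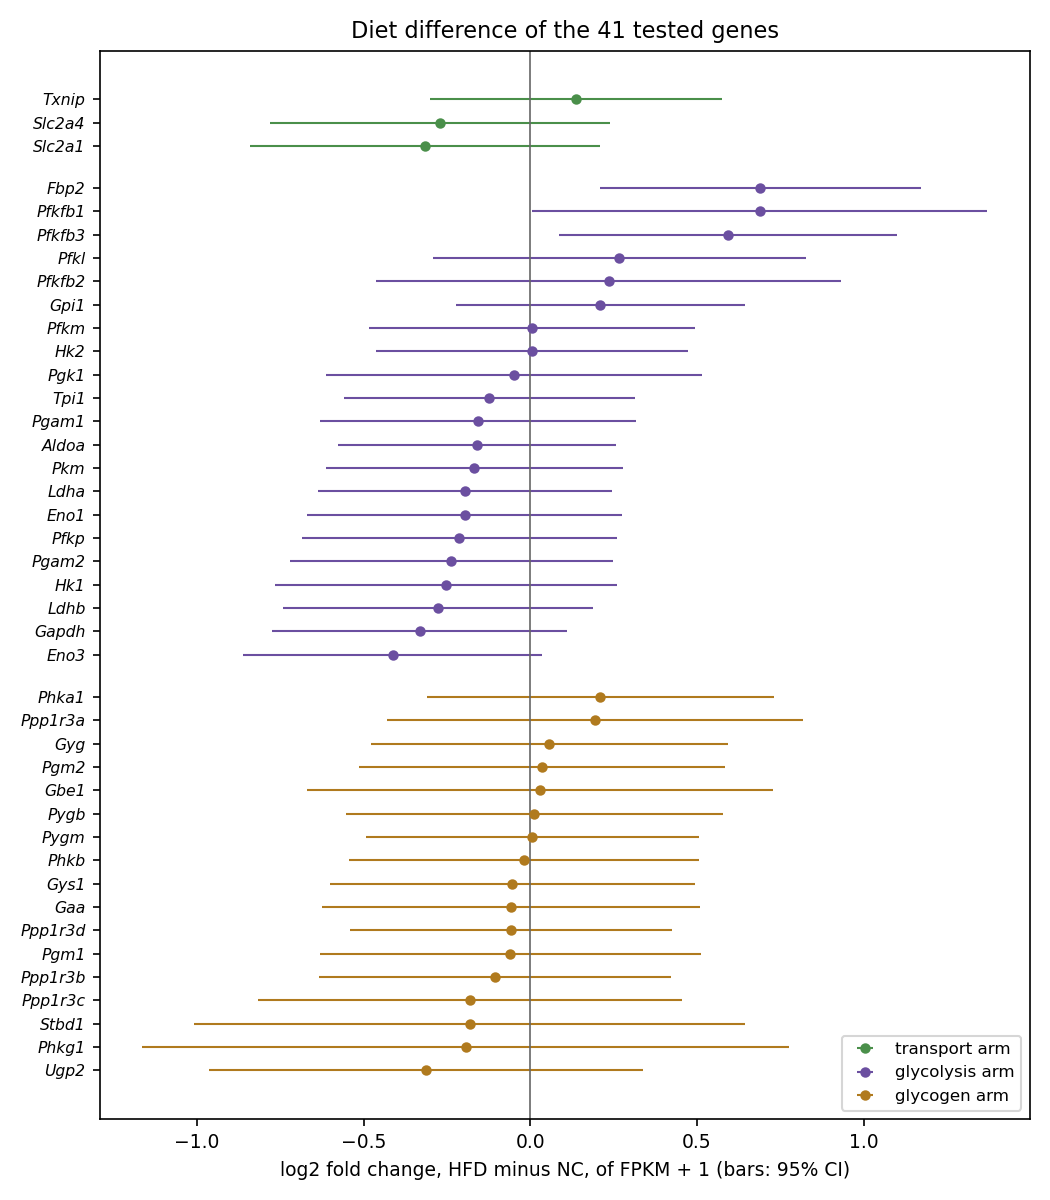
Log2 fold change HFD minus NC of log2(FPKM + 1) for the 41 tested genes (horizontal axis) with 95% confidence intervals from limma, grouped into transport, glycolysis and glycogen and ordered by value. The unadjusted intervals of Fbp2, Pfkfb3 and Pfkfb1 lie above 0, those of the other 38 genes include 0, and no gene passed the adjusted threshold.

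Among the glucose entry genes none separated the diets. Slc2a4 was at 39.7, 48.2 and 70.0 FPKM in HFD 1 to 3, against 65.6, 65.0 and 55.9 FPKM in NC 1 to 3 (log2 fold change -0.27, SE 0.23, 95% CI -0.78 to 0.24), and HFD 3 was the highest library of all while HFD 1 and HFD 2 were the lowest. Slc2a1, the basal transporter GLUT1, was far lower in level, at 3.395, 3.11 and 5.64 FPKM in HFD 1 to 3, against 5.38, 4.86 and 5.20 FPKM in NC 1 to 3 (log2 fold change -0.32, SE 0.24). There too HFD 3 was the highest library and HFD 1 and HFD 2 were the lowest. For Slc2a4 the log2 fold change was -0.09 without HFD 1 and -0.49 without HFD 3, and for Slc2a1 it was -0.19 without HFD 2 and -0.53 without HFD 3. Slc2a12, the transporter GLUT12, was below the filter, with 0.531, 0.326 and 0.421 FPKM in HFD 1 to 3, against 0.551, 0.494 and 1.52 FPKM in NC 1 to 3, and NC 3 alone exceeded 1 FPKM. Txnip, a glucose-induced arrestin that lowers glucose uptake, was the most abundant of the 4 genes, at 97.7, 123 and 97.4 FPKM in HFD 1 to 3, against 109, 91.1 and 88.5 FPKM in NC 1 to 3 (log2 fold change 0.14, SE 0.20, 95% CI -0.30 to 0.58). HFD 2 was its highest library and the diets overlapped. Its exons overlap those of the antisense gene Gm15441, as exons of 16 of the 42 genes overlap a gene on the opposite strand. Among these 16 is Pfkfb1, which overlaps the protein-coding gene Apex2. No source used here says whether reads were counted by strand. Exons of 3 of the 42 genes overlap a gene on the same strand, Pfkfb2 (protein-coding Gm29427), Pfkm (Gm26513) and Pkm (Gm49759). How reads shared with those genes were assigned is not given either.

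**Figure D4:**
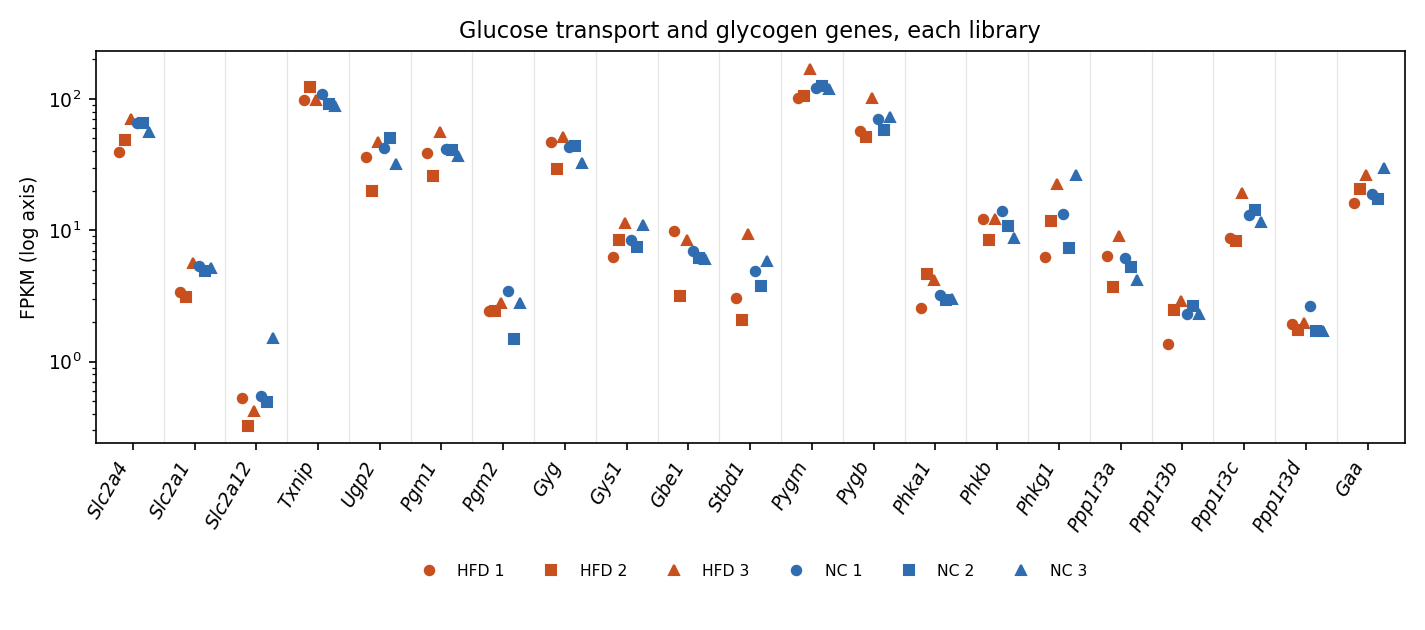
FPKM (log axis) of the 4 transport genes and 17 glycogen genes, with HFD libraries left of NC libraries for each gene and 1 point per library. Pygm is the highest glycogen gene in every library, Slc2a12 is the lowest gene on average, and the diets overlap for all 21 genes.

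In the glycogen group no gene separated the diets, and 10 of 17 genes had a negative log2 fold change, with a median of -0.05. The direction of this median was not stable, at -0.23 without HFD 3, 0.06 without HFD 1 and 0.07 without HFD 2. After rescaling to genes that are not mitochondrially encoded it was 0.03. That rescaling includes the zero-listed predicted genes, and with these left out as well the median was -0.06. Synthesis genes first, Gyg, which encodes the primer glycogenin, averaged 42.3 ± 11.5 FPKM on HFD and 39.8 ± 6.25 FPKM on NC (SD, n = 3 each), and Gys1, the muscle glycogen synthase, 8.70 ± 2.54 FPKM on HFD and 8.94 ± 1.79 FPKM on NC (SD, n = 3 each). Ugp2, which makes UDP-glucose, was at 36.4, 19.8 and 47.3 FPKM in HFD 1 to 3, against 41.9, 50.1 and 31.9 FPKM in NC 1 to 3 (log2 fold change -0.31, SE 0.30), the most negative value of the group. The branching enzyme gene Gbe1 was at 9.86, 3.16 and 8.39 FPKM in HFD 1 to 3, against 6.91, 6.11 and 6.09 FPKM in NC 1 to 3, where HFD 1 was the highest library and HFD 2 the lowest.

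Pygm, the most abundant glycogen gene, was at 101, 105 and 169.8 FPKM in HFD 1 to 3, against 120.0, 124 and 119 FPKM in NC 1 to 3 (log2 fold change 0.01, SE 0.23, 95% CI -0.49 to 0.51). Its NC values were close together, and the HFD values lay on either side of them. Pygb was at 57.2, 51.4 and 101 FPKM in HFD 1 to 3, against 69.8, 57.6 and 72.2 FPKM in NC 1 to 3 (log2 fold change 0.01, SE 0.26), with HFD 3 highest. Pgm1, the main phosphoglucomutase, averaged 39.9 ± 14.97 FPKM on HFD and 39.8 ± 2.55 FPKM on NC (SD, n = 3 each), and its relative Pgm2 2.57 ± 0.219 FPKM on HFD and 2.58 ± 0.998 FPKM on NC (SD, n = 3 each). In older mouse nomenclature these 2 symbols were exchanged, and here Pgm1 is ENSMUSG00000025791. Gaa, which degrades glycogen in lysosomes, averaged 20.9 ± 5.19 FPKM on HFD and 22.0 ± 6.83 FPKM on NC (SD, n = 3 each).

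Phosphorylase kinase, which activates glycogen phosphorylase, is built from several subunits. Its muscle alpha subunit gene Phka1 was at 2.54, 4.67 and 4.15 FPKM in HFD 1 to 3, against 3.24, 2.93 and 3.01 FPKM in NC 1 to 3 (log2 fold change 0.21, SE 0.24), with HFD 2 and HFD 3 above the NC libraries and HFD 1 below them. The beta subunit gene Phkb averaged 10.9 ± 2.15 FPKM on HFD and 11.1 ± 2.61 FPKM on NC (SD, n = 3 each). The muscle catalytic subunit gene Phkg1 had the largest standard error of the 41 tested genes, at 6.24, 11.9 and 22.3 FPKM in HFD 1 to 3, against 13.3, 7.31 and 26.3 FPKM in NC 1 to 3 (log2 fold change -0.19, SE 0.45). NC 3, HFD 3 and NC 1 were its 3 highest libraries, and they also had the 3 highest sums of atrial markers, at 14021, 7182 and 3585 FPKM. Exons of Phkg1 also overlap those of the protein-coding gene Sumf2 on the opposite strand. The part of atrial tissue, or of reads from Sumf2, in these values was not tested. The liver and testis form Phkg2 was at 10.6, 15.3 and 12.3 FPKM in HFD 1 to 3, against 12.6, 8.32 and 17.9 FPKM in NC 1 to 3, above Phkg1 in HFD 1, HFD 2 and NC 2 and below it in the others. The liver alpha subunit gene Phka2 averaged 3.25 ± 0.727 FPKM on HFD and 2.88 ± 0.544 FPKM on NC (SD, n = 3 each), and Phka1 averaged 3.79 ± 1.11 FPKM on HFD and 3.06 ± 0.162 FPKM on NC (SD, n = 3 each).

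Of the regulatory subunits that bring protein phosphatase 1 to glycogen, Ppp1r3c was at 8.67, 8.32 and 19.3 FPKM in HFD 1 to 3, against 12.98, 14.2 and 11.5 FPKM in NC 1 to 3 (log2 fold change -0.18, SE 0.29). The muscle form Ppp1r3a was at 6.41, 3.68 and 9.11 FPKM in HFD 1 to 3, against 6.16, 5.27 and 4.21 FPKM in NC 1 to 3 (log2 fold change 0.19, SE 0.29). Ppp1r3b, known from liver, was at 1.35, 2.46 and 2.91 FPKM in HFD 1 to 3, against 2.31, 2.64 and 2.30 FPKM in NC 1 to 3, and Ppp1r3d averaged 1.88 ± 0.121 FPKM on HFD and 2.03 ± 0.559 FPKM on NC (SD, n = 3 each). Stbd1, a glycogen-binding protein, was at 3.05, 2.08 and 9.44 FPKM in HFD 1 to 3, against 4.87, 3.74 and 5.83 FPKM in NC 1 to 3 (log2 fold change -0.18, SE 0.38). In Ppp1r3c, Ppp1r3a, Ppp1r3b and Stbd1 alike, HFD 3 was the highest of the 6 libraries.

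Across the set, HFD 3 was the highest library for 19 of the 41 tested genes (46.3%, against 34.5% of all tested genes) and the lowest for 0 (against 5.30%). HFD 2 was the lowest library for 17 (41.5%, against 23.1%) and HFD 1 for 15 (36.6%, against 33.1%). Relative to each gene's own mean over the 6 libraries, the median over the 41 genes was -0.21, -0.22 and 0.26 (log2) in HFD 1, HFD 2 and HFD 3, against 0.10, -0.02 and -0.03 in NC 1, NC 2 and NC 3. Over all tested genes these medians were -0.16, -0.03 and 0.17 in the HFD libraries and 0.10, -0.11 and 0.03 in the NC libraries. The glycogen genes spread furthest, with -0.21, -0.33 and 0.35 in the HFD libraries against 0.09, -0.07 and -0.06 in the NC libraries.

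The spread between libraries of a diet is given here as a description, with no test. The median coefficient of variation of the 41 genes was 24.8% on HFD and 11.8% on NC, and 29 of the 41 genes (70.7%) varied more on HFD. Over the tested genes with a level in both diets the medians were 24.9% on HFD and 19.1% on NC, and 62.9% varied more on HFD. Among glycogen genes the medians were 35.8% on HFD and 18.7% on NC, and among glycolysis genes 18.9% and 11.7%. HFD 3 had the lowest erythroid marker sum of all libraries (1241 FPKM) and HFD 2 the highest (13371 FPKM), and the part of blood in these differences was not tested.

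**Figure D5:**
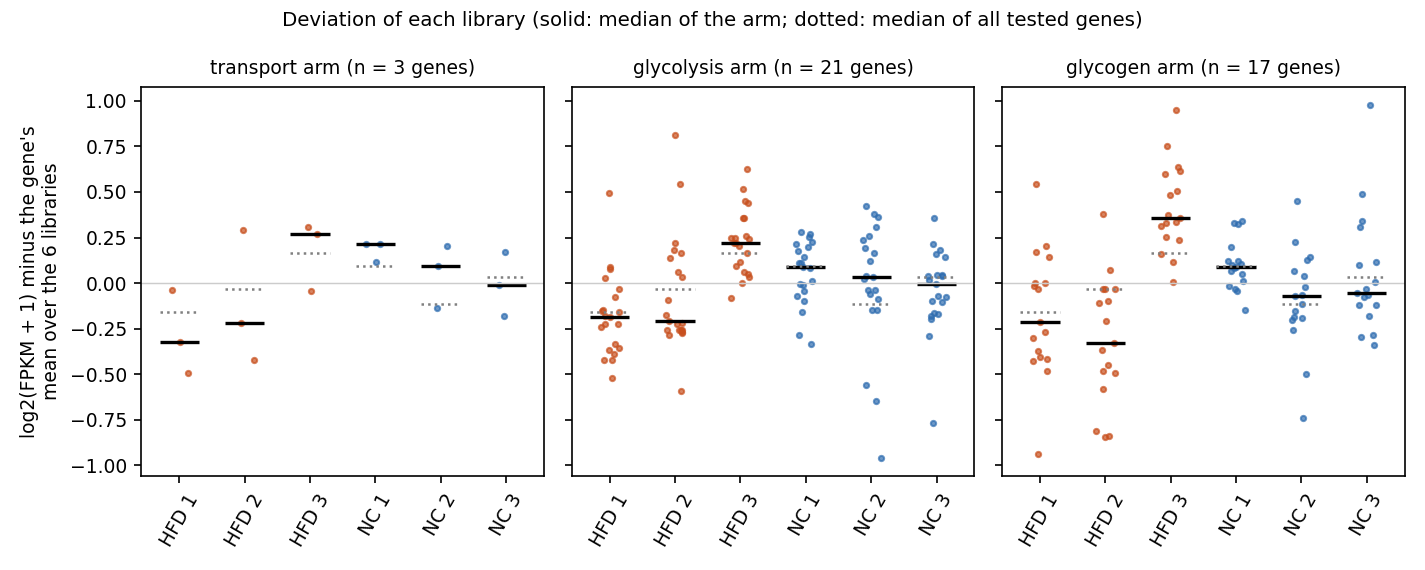
Deviation of log2(FPKM + 1) from each gene's mean over the 6 libraries (vertical axis) for every library, HFD left of NC, in the transport, glycolysis and glycogen groups. Solid lines mark the median of the group and dotted lines that of all tested genes, and in the glycogen group the solid line is at 0.35 in HFD 3 and -0.33 in HFD 2.

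The comparison of the set between the diets depended on which libraries entered it. With all libraries 25 of 41 genes (61.0%) had a negative log2 fold change, against 53.1% of all tested genes, with a median of -0.06. After rescaling to genes that are not mitochondrially encoded, 46.3% of the set and 40.2% of all genes were below 0. With the zero-listed genes left out of that rescaling as well, these shares were 63.4% and 53.7%. Without HFD 3, 78.0% of the set was below 0, against 66.4% of all tested genes. The medians there were -0.26 for the set and -0.11 for all genes. HFD 3 was the highest library for 19 of the 41 genes and the lowest for 0, so leaving it out lowers the HFD mean of those 19 by construction. In the comparison without HFD 3, 8 of the 41 genes (19.5%) had an unadjusted p under 0.05, against 5.91% of all genes. They were Fbp2 and Pfkfb3 with positive values, and Stbd1 (-0.70), Ppp1r3c (-0.55), Eno3 (-0.55), Slc2a1 (-0.53), Slc2a4 (-0.49) and Gapdh (-0.47) with negative ones. None of the 41 passed there (smallest limma adjusted p = 0.828). Without NC 2, 0 of the 41 had an unadjusted p under 0.05, against 4.43% of all genes, so Fbp2, Pfkfb3 and Pfkfb1 were not among them, and without HFD 2 it was 1 of the 41, against 4.42%. Without HFD 1, 58.5% of the set and 41.3% of all genes were below 0. Without HFD 2, 48.8% of the set and 51.3% of all genes were below 0, and the median of the set was 0.02 and that of all genes -0.01.

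Other genes of the same pathways were read from a list of 63, of which 59 were in the table and 44 were tested. None was called, 17 were above 0 and 27 below, and the median log2 fold change was -0.08. At an unadjusted p under 0.05, 1 of the 44 was lower on HFD, where 2.30% of all genes were. It was Slc16a3, the lactate exporter MCT4, at 1.22, 0.801 and 1.27 FPKM in HFD 1 to 3, against 4.64, 1.45 and 3.02 FPKM in NC 1 to 3 (log2 fold change -0.87, SE 0.29, 95% CI -1.51 to -0.24, limma unadjusted p = 0.0112). All HFD values lay below all NC values, at a low level, and 4.88% of all tested genes separated in this direction. Its relative Slc16a1, which encodes MCT1, was higher in level, at 23.0, 15.6 and 28.6 FPKM in HFD 1 to 3, against 22.7, 21.0 and 18.1 FPKM in NC 1 to 3 (log2 fold change 0.08, SE 0.24).

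The mitochondrial pyruvate carrier genes were the most abundant of this list. Mpc1 was at 375, 204 and 337 FPKM in HFD 1 to 3, against 352, 361 and 269.6 FPKM in NC 1 to 3 (log2 fold change -0.13, SE 0.25) and Mpc2 averaged 242 ± 27.4 FPKM on HFD and 265 ± 22.9 FPKM on NC (SD, n = 3 each). Mlx, a partner of the glucose-responsive factors, was at 11.5, 9.61 and 11.7 FPKM in HFD 1 to 3, against 12.9, 11.1 and 21.2 FPKM in NC 1 to 3 (log2 fold change -0.38, SE 0.25), where NC 3 was the highest library. Isoforms of other tissues were at or near 0, with the liver and red cell pyruvate kinase gene Pklr listed at 0 in all 6 libraries, and means of 0.00304 FPKM for the liver glycogen synthase gene Gys2 and 0.0334 FPKM for the liver fructose bisphosphatase gene Fbp1.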

How the data were processed

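mRNA-seq libraries of mouse heart (3 on HFD, 3 on NC) were compared. Trizol RNA and a VAHTS kit for mRNA were used, per the labels' protocols. The authors deposited 1 table of FPKM values, 1 column a library. What computed the FPKM, how many reads there were and whether strand was used: not given in the sources used here. Named without roles, per the submitters' processing notes, are mm10, DESeq2 1.18.1, R 3.4.1, HTSeq 0.13.5, HISAT2 2.2.1, Trimmomatic 0.38 and FastQC 0.11.9. Whole-read steps were looked for in low values (under 0.3 FPKM) and were not found, so reads could not be recovered for a count test. Symbols were matched by gene identifier for 23718 of 23808 genes.

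Values were taken as log2(FPKM + 1), and genes averaging 1 FPKM or more were tested with limma 3.58.1 in R 4.3.3 (eBayes with trend, no covariates, Benjamini-Hochberg adjustment over 11456 genes, threshold 0.05). Fold changes are HFD minus NC. The fit was tested on simulated data. Isoform shares were compared with exact permutation tests (scipy 1.17.1). Alternatives were 2 other pseudocounts (0.1, 0.5), no filter or a mean of at least 5 FPKM, quantile normalization, median centring, 2 rescalings, other eBayes settings, a replicate block and leaving out each library. One rescaling, without mitochondrially encoded and zero-listed genes, was added after seeing the data. Values by library are given for the highest form of each isoform family, the highest gene of each group and up to 6 genes per group with the smallest p, and a few others were added after their values were seen. One of the other pathway genes is not reported here. The members and lists were chosen with earlier results of these data known. Sequences are from RefSeq (GRCm38.p6), coordinates from GENCODE M21 (mm10).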

Additional observations from a re-analysis of the deposited data

How the results depend on the processing

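No member of the set passed an adjusted p of 0.05 under any of the 17 alternatives run. Over all genes 0 passed in 15 of these, 1 gene passed without NC 2 (0 to 1 when 1 library was left out), and 73 passed with the replicate number as a block (22 higher and 51 lower on HFD, 0 of them members, smallest limma adjusted p of a member 0.452). The cause of this difference, and of the changes of sign below, was not tested. Deviations of same-numbered libraries correlated at 0.193, 0.0864 and 0.275 across genes, so the numbers were not taken to pair the libraries. Not every library matched its own number best. The paired form of the isoform shares changed no call. Under every alternative the median log2 fold change of each of the 3 groups moved by less than the pooled SD between libraries of a diet (0.238 for transport, 0.174 for glycolysis, 0.266 for glycogen). For glycolysis and glycogen this SD was larger than the size of the median itself (-0.156 and -0.0538). A median there could vanish and still move by less, so this does not show that it was stable. The median was -0.494 to -0.067 for transport, -0.281 to -0.0306 for glycolysis and -0.233 to 0.074 for glycogen, so the glycogen median changed sign. Of the 41 genes 21 kept their sign under every alternative and 20 did not. After quantile normalization the log2 fold change was 0.0716 for Pgk1, 0.0125 for Pgm1 and 0.00573 for Phkb. Rescaled to genes that are not mitochondrially encoded, a sum that includes the zero-listed predicted genes, it was 0.0274 for Gaa, 0.0257 for Gys1, 0.0402 for Pgk1, 0.0283 for Pgm1, 0.0649 for Phkb and 0.00329 for Ppp1r3d, and the share of members below 0 was 46.3%, against 61.0%. Rescaled without mitochondrially encoded and zero-listed genes, the log2 fold change was -0.000133 for Hk2, and 63.4% of members were below 0. Leaving out 1 library gave -0.23 to 0.173 for Gaa, -0.236 to 0.456 for Gbe1, -0.0937 to 0.296 for Gyg, -0.245 to 0.135 for Gys1, -0.161 to 0.0895 for Hk2, -0.0899 to 0.505 for Pfkfb2, -0.22 to 0.118 for Pfkm, -0.281 to 0.234 for Pgk1, -0.326 to 0.215 for Pgm1, -0.204 to 0.215 for Pgm2, -0.164 to 0.142 for Phkb, -0.619 to 0.247 for Phkg1, -0.0663 to 0.49 for Ppp1r3a, -0.258 to 0.108 for Ppp1r3b, -0.545 to 0.0154 for Ppp1r3c, -0.134 to 0.0884 for Ppp1r3d, -0.283 to 0.198 for Pygb, -0.233 to 0.142 for Pygm, -0.703 to 0.177 for Stbd1 and -0.577 to 0.0301 for Ugp2. For isoform shares it gave differences (percentage points) of 1.71 to 8.03 for Hk2, -18.7 to 1.44 for Pfkfb2, -1.37 to 1.82 for Pygm, -2.91 to 0.983 for Ldhb, -1.39 to 0.103 for Pfkm and -1.11 to 0.249 for Pgam2. FPKM without read counts give no counting error, so precision rests on the 3 libraries of each diet. A mean of at least 5 FPKM left 34 members to test.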
